A study of Mus musculus with 18 samples.

Results

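The expression of 10 genes of the negative arm of the circadian clock was described in mouse liver. They were the 3 Period genes (Per1, Per2 and Per3), both cryptochrome genes (Cry1 and Cry2), Ciart, the related repressors Bhlhe40 and Bhlhe41, and the genes of 2 casein kinases, Csnk1d and Csnk1e. Members were taken by gene symbol from the deposited expression table, which lists all 10 among its 19057 genes. The genes were chosen by name after RPKM values of the same libraries had shown Ciart and Dbp, another clock gene, at higher levels in recipients of transferred gut microbiota than in HS mice, which had the same diet and injection but no transfer.

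The clock of mammalian cells is a loop of transcription and repression. The activators CLOCK (or NPAS2) and BMAL1, the product of Arntl, bind E-box sequences and switch on the Per, Cry, Ciart and Bhlhe40 genes, whose proteins then return to the nucleus and hold the activators back. Casein kinase 1 delta and epsilon phosphorylate PER proteins and so set how long these last. In the liver the transcripts of the loop rise and fall over the day, with Arntl and Npas2 high when Dbp and Per3 are low, and the cycle responds to meals, glucocorticoid and body temperature.

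RNA-seq was performed on livers of male ICR mice of 10 weeks of age in 6 groups of 3 libraries each. Con mice were given the regular diet and saline, and HS mice were given a high-fat diet and a single injection of streptozotocin (STZ), which is toxic to the insulin-producing beta cells. A10-FMT and Con-FMT mice had the HS treatment and, for a limited time, daily oral doses of small intestine microbiota, pooled from donors that had received 10 mg/kg alginate oligosaccharide (AOS) or from control donors. In A10, AOS was given at 10 mg/kg, and in HS+A10 the same dose came with the high-fat diet and STZ. Both are known from the sample labels, which do not state the diet of A10. The mice lived in an alternating light/dark cycle, and the time of day at which livers were taken is not given in the sources used here, so the phase of the clock and the treatment cannot be told apart in any comparison. Nothing states that the 3 libraries of a group came from separate mice, and the p-values measure only the spread between these libraries.

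Values are RPKM, reads per kilobase of gene length scaled to the mapped reads of each library. All 8 hepatocyte markers were detected in each group, with a sum of 38831.97 to 59305.67 RPKM per library. In Con, replicate 3 had an intermediate value in 90.9% of the 1019 genes in which replicates 1 and 2 differed by at least 1.5-fold, and in A10 it did in 90.7% of 740 genes, against 33.1% to 71.6% for the other 16 libraries. The 12 markers of pancreatic acinar cells summed to as much as 23056.22 RPKM in Con-FMT, in replicate 3, and to 14.06 to 50.38 RPKM in the other 5 groups. The 3 red cell markers summed to 2701.9 to 8142.95 RPKM in HS and 1035.38 to 1970.19 RPKM in Con. The highest sum in HS was that of replicate 2. The part of these differences in the values was not tested. In bulk tissue, fewer cells of a type and less RNA per cell cannot be told apart.

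The genes fell into 3 kinds of pattern over the 6 groups. Ciart, Per3, Bhlhe41 and Cry2 were low in all libraries of Con, A10 and HS and higher in all libraries of HS+A10, A10-FMT and Con-FMT, and Cry1 was highest in Con and lowest in HS+A10. Per1 and Per2 were highest in Con-FMT and Bhlhe40 was lowest in HS. Csnk1d and Csnk1e varied least. The highest group mean was 45.9 times the lowest for Ciart, 12.6 times for Per3, 12.3 times for Bhlhe41, 9.37 times for Per1, 5.30 times for Cry1, 5.01 times for Per2, 2.95 times for Bhlhe40, 2.19 times for Cry2, 1.48 times for Csnk1e and 1.27 times for Csnk1d. Ciart and Per3 had a mean under 1 RPKM in Con, A10 and HS and were tested because of their level in the other 3 groups. Bhlhe41 averaged 0.684 RPKM over the 18 libraries and was below the filter of 1 RPKM, which left 9 of the 10 genes in the tests.

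**Figure D1:**
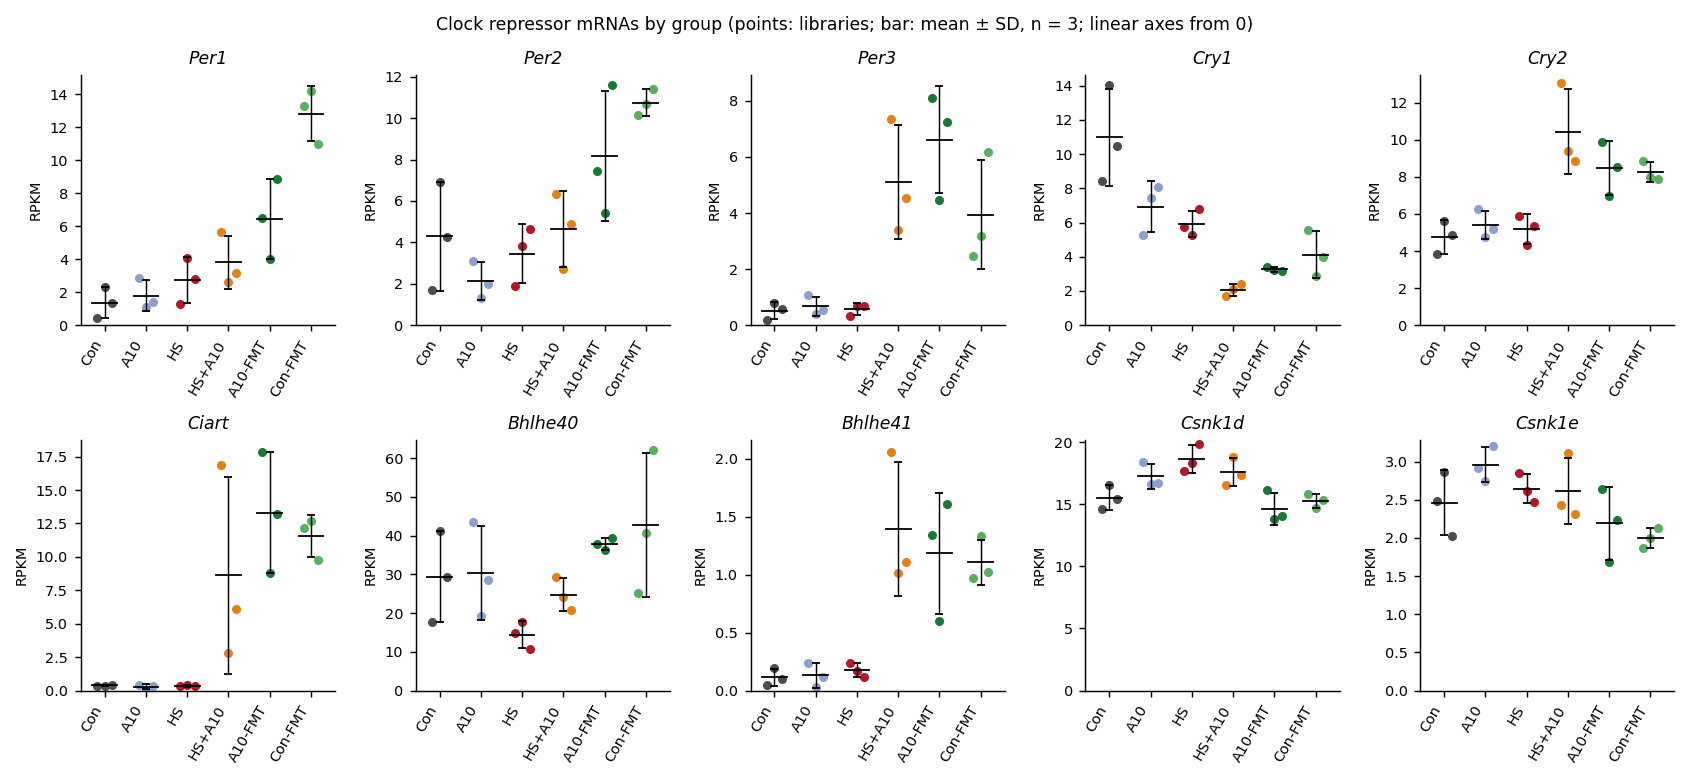
RPKM of the 10 clock repressor genes in 6 groups of liver libraries, with a point for each library and a bar for the mean ± SD (n = 3), on linear axes that start at 0. Ciart lay between 0.07 and 0.45 RPKM in Con, A10 and HS and between 2.84 and 17.87 RPKM in HS+A10, A10-FMT and Con-FMT, while Csnk1d stayed between 13.79 and 19.87 RPKM.

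To show what lies next to the starts of Ciart, Per1, Per3 and Cry1, 4 genes with wide ranges of group means that passed the filter, the 250 bases before the transcript start are given for Ciart, Per3, Cry1 and Per1 as listed by RefSeq (GRCm38.p6), 5′ to 3′ on the strand of the gene. Capitals mark the E-box CACGTG, the site of CLOCK and BMAL1 and of the BHLHE repressors, and the D-box TTATGNAA, the site of DBP, TEF, HLF and NFIL3. The Ciart window is chr3:95882229-95882478 (minus strand), the Per3 window chr4:151044666-151044915 (minus strand), the Cry1 window chr10:85185055-85185304 (minus strand) and the Per1 window chr11:69098699-69098948 (plus strand, the first of 2 listed starts). At their 3′ ends the Ciart and Cry1 windows overlap the gene as annotated in GENCODE M21. The Per1 window lies wholly inside the annotated gene, downstream of its most upstream start. The Csnk1e windows also lie inside their gene.
Ciart: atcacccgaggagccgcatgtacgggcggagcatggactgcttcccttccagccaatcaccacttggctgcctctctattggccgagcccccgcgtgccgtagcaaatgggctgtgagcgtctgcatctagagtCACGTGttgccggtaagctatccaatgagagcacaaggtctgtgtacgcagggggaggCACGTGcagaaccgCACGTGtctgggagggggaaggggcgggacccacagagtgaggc
Per3: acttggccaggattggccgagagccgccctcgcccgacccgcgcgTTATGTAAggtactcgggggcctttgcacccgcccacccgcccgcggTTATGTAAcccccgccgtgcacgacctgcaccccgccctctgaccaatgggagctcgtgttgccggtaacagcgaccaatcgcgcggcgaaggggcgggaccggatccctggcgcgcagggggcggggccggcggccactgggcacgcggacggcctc
Cry1: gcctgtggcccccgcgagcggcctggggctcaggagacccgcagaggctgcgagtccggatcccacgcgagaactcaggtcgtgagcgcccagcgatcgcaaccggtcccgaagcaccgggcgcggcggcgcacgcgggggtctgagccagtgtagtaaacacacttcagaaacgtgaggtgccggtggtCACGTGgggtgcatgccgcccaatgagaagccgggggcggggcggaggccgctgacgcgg
Per1: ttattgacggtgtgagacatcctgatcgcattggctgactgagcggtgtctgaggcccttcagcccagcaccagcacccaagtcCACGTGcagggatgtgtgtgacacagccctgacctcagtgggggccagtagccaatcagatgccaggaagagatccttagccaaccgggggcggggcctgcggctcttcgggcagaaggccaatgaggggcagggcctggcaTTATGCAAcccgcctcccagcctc
Ciart holds 3 E-boxes, which begin at positions -116, -58 and -44 from the start. Of 32851 windows of the same length before mouse transcript starts, 6.02% hold at least 1 E-box and 0.0609% at least 3, counted on both strands. Per3 holds no E-box and 2 D-boxes, at -205 and -158, a motif found at least once in 3.07% of windows and at least 2 times in 0.128%. Cry1 has an E-box at -60 and the related CACGTT at -79 (3.85% of windows), and Per1 has an E-box at -166, a D-box at -24 and the nuclear receptor half-site AGGTCA at -137 (14% of windows). The second Per1 start has the cAMP-response half-site TGACGT at -132 (6.47% of windows). Of the other genes with a window, Bhlhe41 has an E-box at -153, Cry2 has CACGTT at -166, and Csnk1e has none of the 5 motifs in its 4 windows. Windows were listed for 7 of the 10 genes, not for Per2, Bhlhe40 and Csnk1d. A match of letters is a description and does not show that a factor binds there.

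**Figure D2:**
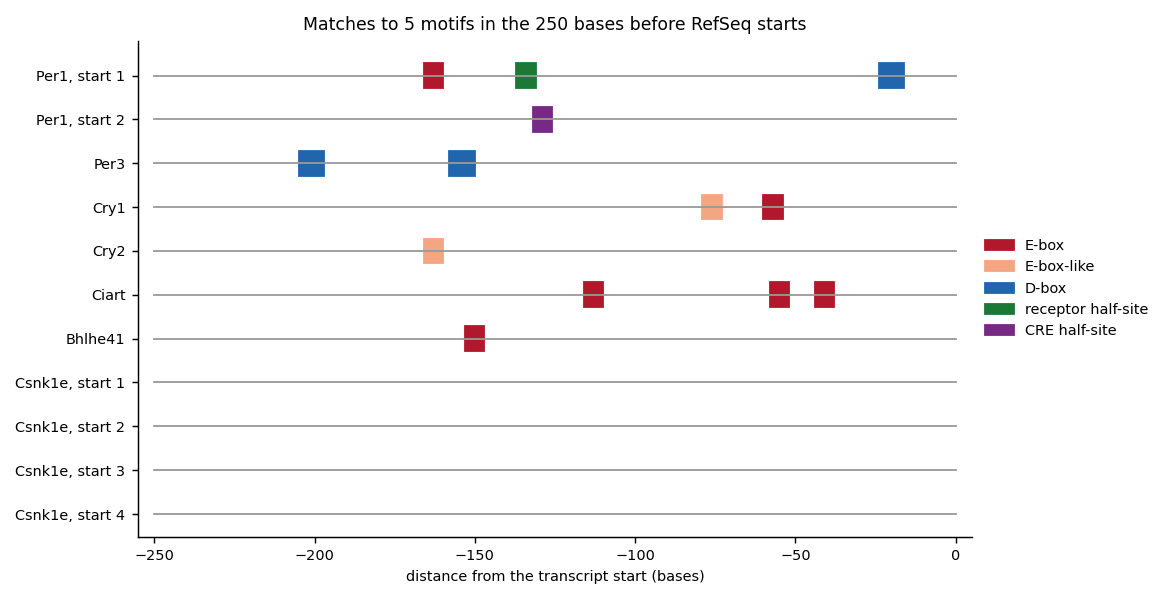
Matches to 5 motifs in the 250 bases before RefSeq transcript starts of 7 clock repressor genes, by distance from the start in bases. Ciart has 3 E-boxes, Per3 has 2 D-boxes and the 4 windows of Csnk1e have no match.

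Per1 (chr11:69095217-69109960, plus strand) encodes a PER protein that binds CRY and also responds quickly to hormone and light signals. It was at 0.44, 2.34 and 1.32 RPKM in the Con libraries, at 2.88, 1.11 and 1.40 RPKM in A10, at 1.31, 4.09 and 2.78 RPKM in HS and at 5.65, 2.62 and 3.14 RPKM in HS+A10. It was at 6.49, 4.01 and 8.87 RPKM in A10-FMT and at 13.26, 14.21 and 10.96 RPKM in Con-FMT. All 3 Con-FMT libraries lay above every other library, while each of the other neighbours in the order Con, A10, HS, HS+A10 and A10-FMT overlapped the next.

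Per2 (chr1:91415982-91459324, minus strand) encodes a PER protein that mice need for a normal rhythm. It was at 1.68, 6.92 and 4.27 RPKM in Con, at 3.12, 1.33 and 1.99 RPKM in A10, at 1.89, 3.85 and 4.63 RPKM in HS and at 6.36, 2.71 and 4.91 RPKM in HS+A10. It was at 7.47, 5.44 and 11.59 RPKM in A10-FMT and at 10.16, 10.68 and 11.42 RPKM in Con-FMT. The Con-FMT libraries were the most alike, with a mean of 10.8 ± 0.633 RPKM (SD, n = 3), and all neighbouring groups in the order of means overlapped.

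Per3 (chr4:151003652-151044665, minus strand) encodes a PER protein that is not required for rhythm. Its level was 0.18, 0.81 and 0.58 RPKM in Con, 1.06, 0.40 and 0.55 RPKM in A10 and 0.32, 0.69 and 0.70 RPKM in HS. It was 7.36, 3.41 and 4.53 RPKM in HS+A10, 8.12, 4.46 and 7.25 RPKM in A10-FMT and 2.48, 3.19 and 6.16 RPKM in Con-FMT. The gap lay between A10, with a mean of 0.670 ± 0.346 RPKM (SD, n = 3), and Con-FMT, with 3.94 ± 1.95 RPKM (SD, n = 3), and the groups on either side of it overlapped one another.

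Cry1 (chr10:85131700-85185064, minus strand) encodes the stronger repressor of the pair of cryptochromes. It was at 8.45, 14.03 and 10.46 RPKM in Con, at 5.25, 7.41 and 8.10 RPKM in A10 and at 5.73, 5.26 and 6.78 RPKM in HS. It was at 1.71, 2.09 and 2.41 RPKM in HS+A10, at 3.41, 3.20 and 3.16 RPKM in A10-FMT and at 5.55, 2.85 and 3.99 RPKM in Con-FMT. The Con libraries lay above all 15 others and the HS+A10 libraries below all 15 others. From A10-FMT upward, Con-FMT, HS and A10 overlapped their neighbours.

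Cry2 (chr2:92403646-92434043, minus strand), the other cryptochrome gene, went the opposite way. It was at 3.82, 5.63 and 4.88 RPKM in Con, at 6.25, 4.75 and 5.20 RPKM in A10 and at 5.91, 4.33 and 5.35 RPKM in HS. Its level was 13.06, 9.42 and 8.85 RPKM in HS+A10, 9.88, 6.97 and 8.56 RPKM in A10-FMT and 8.87, 8.01 and 7.89 RPKM in Con-FMT. As for Per3, the first 3 groups did not overlap the last 3. The exons of Cry2, Bhlhe40, Bhlhe41, Csnk1d and Csnk1e overlap an annotated gene on the opposite strand, and reads of the pair cannot be told apart without strand information.

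Ciart (chr3:95878503-95882251, minus strand) encodes CHRONO, a repressor that binds BMAL1 directly. It was at 0.35, 0.36 and 0.45 RPKM in Con, at 0.45, 0.07 and 0.35 RPKM in A10 and at 0.32, 0.42 and 0.32 RPKM in HS. It was at 16.90, 2.84 and 6.09 RPKM in HS+A10, at 17.87, 8.82 and 13.23 RPKM in A10-FMT and at 12.18, 12.69 and 9.79 RPKM in Con-FMT. The 9 libraries of the first 3 groups ended at 0.45 RPKM and the 9 of the others began at 2.84 RPKM. HS+A10 had the widest spread, 8.61 ± 7.36 RPKM (SD, n = 3), and overlapped Con-FMT at 11.6 ± 1.55 RPKM (SD, n = 3), which overlapped A10-FMT at 13.3 ± 4.53 RPKM (SD, n = 3).

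Bhlhe40 (chr6:108660629-108666925, plus strand) and Bhlhe41 (chr6:145858243-145865558, minus strand) encode DEC1 and DEC2, which compete with the activators for the E-box. Bhlhe40 was at 17.58, 41.10 and 29.37 RPKM in Con, at 43.46, 19.18 and 28.45 RPKM in A10, at 14.94, 17.70 and 10.74 RPKM in HS and at 29.30, 24.07 and 20.87 RPKM in HS+A10. It was at 37.78, 36.25 and 39.49 RPKM in A10-FMT and at 25.21, 40.63 and 62.17 RPKM in Con-FMT. Only the step from HS to HS+A10 was free of overlap between neighbours. Bhlhe41 was between 0.03 and 0.24 RPKM in all libraries of Con, A10 and HS and at 2.06, 1.01 and 1.11 RPKM in HS+A10, 1.34, 0.60 and 1.61 RPKM in A10-FMT and 0.97, 1.33 and 1.02 RPKM in Con-FMT.

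Csnk1d (chr11:120961749-120991330, minus strand) and Csnk1e (chr15:79417856-79455566, minus strand) encode casein kinase 1 delta and epsilon. Csnk1d was at 14.60, 16.59 and 15.41 RPKM in Con, at 18.43, 16.63 and 16.68 RPKM in A10, at 17.68, 18.33 and 19.87 RPKM in HS and at 16.58, 18.79 and 17.37 RPKM in HS+A10. It was at 16.13, 13.79 and 14.04 RPKM in A10-FMT and at 15.84, 14.72 and 15.32 RPKM in Con-FMT. Csnk1e lay between 1.69 and 3.21 RPKM in the 18 libraries, with group means of 2.00 RPKM in Con-FMT to 2.96 RPKM in A10, and all neighbouring groups overlapped.

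All 18 libraries were fitted together with limma on the log2(RPKM + 1) scale, over the 10204 genes that averaged 1 RPKM or more. Changes are on this scale, which understates those of low genes, and calls were made at a two-sided Benjamini-Hochberg adjusted p under 0.05. The changes between A10 and Con and between HS+A10 and A10 are computed from no HS or recipient library, but their errors, their p-values and the filter rest on all 18 libraries, including those whose values led to the choice of genes.

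In HS+A10 compared with A10, 2 groups that both had AOS, of which HS+A10 had the high-fat diet and STZ and the diet of A10 is not stated, Per3, Cry2 and Ciart were increased and Cry1 was decreased. Of the 9 genes tested 3 were higher and 1 lower, where 13.6% of all genes tested were higher and 7.28% lower. Among the 3, Ciart and Per3 passed the filter only through their level in HS+A10 and the recipient groups, so this count is not independent of those levels. Ciart rose by 2.62 on the log2 scale (SE 0.37, adjusted p = 2.92e-04, limma), Per3 by 1.84 (SE 0.28, adjusted p = 5.08e-04) and Cry2 by 0.83 (SE 0.16, adjusted p = 0.00188). Cry1 changed by -1.36 (SE 0.19, adjusted p = 2.83e-04). Per1, at 0.78 (adjusted p = 0.133), and Per2, at 0.83 (adjusted p = 0.127), did not pass. Without the filter on low values, Bhlhe41 rose by 1.06 (SE 0.18, adjusted p = 0.00247 over 19057 genes). With the third libraries of Con and A10 left out, the log2 changes were 2.66 for Ciart, 1.79 for Per3, 0.81 for Cry2 and -1.25 for Cry1, and all 4 were still called. With only the A10 and HS+A10 libraries in the fit the adjusted p was 0.0127 for Ciart, 0.00381 for Per3, 0.0112 for Cry2 and 0.00215 for Cry1.

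In A10 compared with Con, which differ by AOS dosing as far as the labels state, limma called 0 of the 9 genes, 1 had an unadjusted p under 0.05, and 0.0686% of all genes were called. That gene was Cry1, at -0.59 (SE 0.19, adjusted p = 0.223), whose A10 libraries all lay below the Con libraries, and at -0.72 (adjusted p = 0.675) with the third library of each group left out. Ciart was at 0.290 ± 0.197 RPKM in A10 and 0.387 ± 0.0551 RPKM in Con (SD, n = 3), and Per3 at 0.670 ± 0.346 and 0.523 ± 0.319 RPKM (SD, n = 3).

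In HS compared with Con, which differ by diet and STZ as far as is stated, Cry1 was decreased and Csnk1d was slightly increased. Each was 1 of 9 genes, where 15.9% of all genes were higher and 1.87% lower, and all genes had a median change of 0.14. Cry1 changed by -0.77 (SE 0.19, adjusted p = 0.0150, limma) and Csnk1d by 0.25 (SE 0.08, adjusted p = 0.0398). The Csnk1d change went to 0.07 (adjusted p = 0.498) when libraries were scaled to the same median, and with single libraries left out its adjusted p was 0.144 without Con replicate 1, 0.0993 without Con replicate 3, 0.0791 without HS replicate 2 and 0.129 without HS replicate 3. For Cry1 the adjusted p was 0.0530 without Con replicate 2 and 0.0543 without HS replicate 2, and 0.00548 to 0.0543 over all alternatives. With the third libraries of Con and A10 left out, Cry1 changed by -0.79 (adjusted p = 0.0496) and Csnk1d by 0.24 (adjusted p = 0.123). Bhlhe40 was at 14.5 ± 3.50 RPKM in HS and 29.4 ± 11.8 RPKM in Con (SD, n = 3), a difference of -0.92 (adjusted p = 0.0669) that was called only without Con replicate 1 (-1.24, adjusted p = 0.0382) and under median scaling (-1.10, adjusted p = 0.0455). Ciart was at 0.353 ± 0.0577 RPKM in HS (SD, n = 3), against 0.387 ± 0.0551 RPKM in Con.

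In HS+A10 compared with HS, which differ by direct AOS dosing as far as the labels state, Per3, Cry2 and Ciart were again increased and Cry1 decreased. Of 9 tested, 3 were higher and 1 lower, where 2.95% of all genes were higher and 4.37% lower. Here too Ciart and Per3 were tested only because of their level in HS+A10 and the recipient groups. Ciart rose by 2.54 (SE 0.37, adjusted p = 0.00376, limma), Per3 by 1.92 (SE 0.28, adjusted p = 0.00376) and Cry2 by 0.88 (SE 0.16, adjusted p = 0.00562), and Cry1 changed by -1.17 (SE 0.19, adjusted p = 0.00410). Without the filter, Bhlhe41 rose by 1.00 (adjusted p = 0.0151). With only the HS and HS+A10 libraries in the fit, Ciart (adjusted p = 0.0766) and Cry2 (adjusted p = 0.0712) were no longer called. Without HS replicate 2, the library with the most red cell markers, the changes were 2.58 for Ciart, 1.97 for Per3, 0.77 for Cry2 and -1.24 for Cry1, all of them called. This comparison shares the HS+A10 libraries with the one against A10, and the HS libraries with the one that led to the choice of genes.

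The difference between HS+A10 and HS was then compared with that between A10 and Con. By limma, 0 of 9 genes were called and 4 had an unadjusted p under 0.05, and 0.0098% of all genes were called. The difference was 2.66 for Ciart (SE 0.53, adjusted p = 0.0934), 1.78 for Per3 (SE 0.40, adjusted p = 0.118), 0.72 for Cry2 (adjusted p = 0.202) and -0.58 for Cry1 (adjusted p = 0.379). Ciart was called without HS replicate 1 (2.64, adjusted p = 0.0435), without HS+A10 replicate 2, the library with its lowest value in that group (3.17, adjusted p = 0.00567), and with a pseudocount of 0.1 (4.39, adjusted p = 0.0353), in a range of adjusted p of 0.00567 to 0.419 over all alternatives, the highest with the third libraries of Con and A10 left out.

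**Figure D3:**
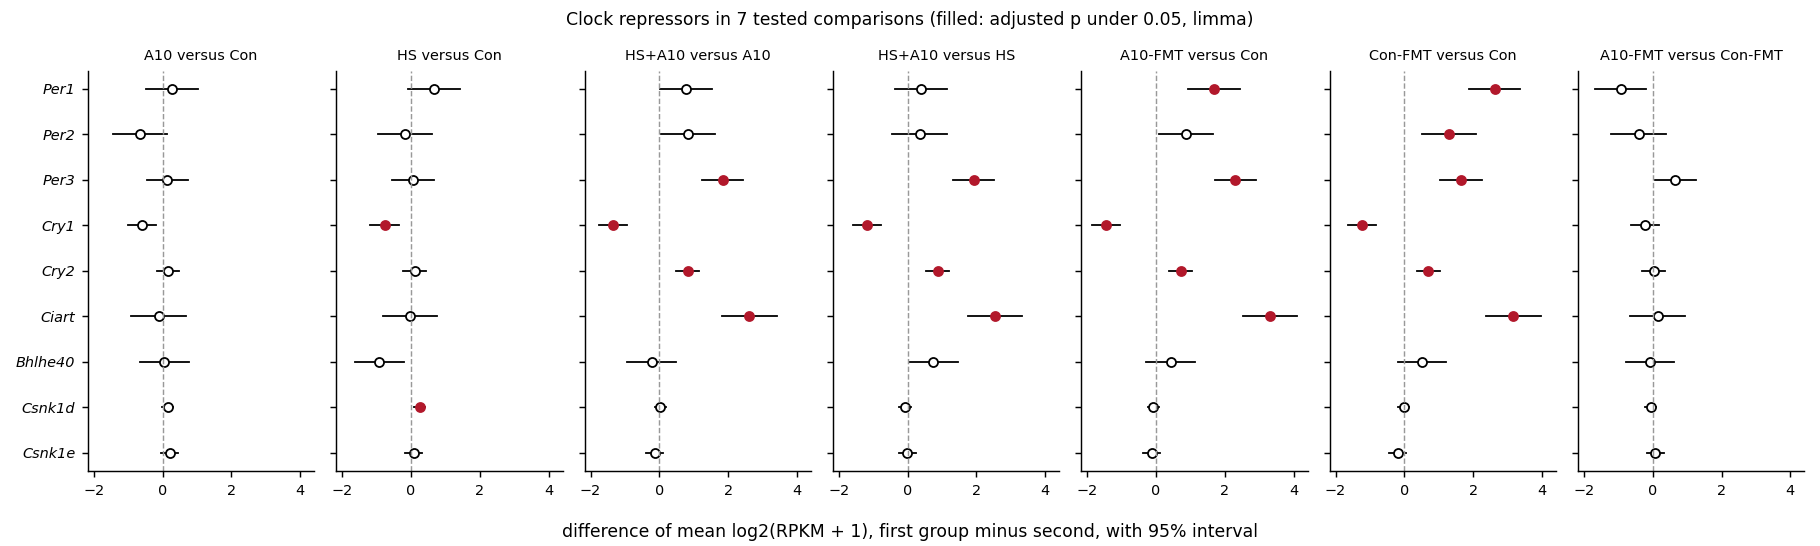
Difference of mean log2(RPKM + 1) with its 95% interval for 9 clock repressor genes in 7 comparisons, first group minus second. Filled points passed an adjusted p of 0.05 in limma, and Ciart was the gene with the widest change in HS+A10 (2.62 against A10 and 2.54 against HS) and in both recipient groups against Con (3.32 and 3.17).

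In the recipients of microbiota compared with Con, Ciart, Per3, Cry2 and Per1 were increased and Cry1 was decreased in both groups, and Per2 was increased in Con-FMT. The recipient libraries are those that led to the choice of genes, so these calls are no independent support for it. In A10-FMT compared with Con, 4 of 9 genes were higher and 1 lower, where 6.72% of all genes were higher and 7.62% lower. In Con-FMT compared with Con, 5 of 9 were higher and 1 lower, where 14.4% of all genes were higher and 11.5% lower. Both counts include Ciart and Per3, which were tested only because of their level in HS+A10 and the recipient groups. In A10-FMT the change was 3.32 for Ciart (adjusted p = 8.62e-05, limma), 2.31 for Per3 (adjusted p = 1.59e-04), 1.68 for Per1 (adjusted p = 0.00592), 0.71 for Cry2 (adjusted p = 0.00717) and -1.47 for Cry1 (adjusted p = 2.59e-04). In Con-FMT it was 3.17 for Ciart (adjusted p = 3.37e-05), 2.62 for Per1 (adjusted p = 1.02e-04), 1.65 for Per3 (adjusted p = 6.98e-04), 1.29 for Per2 (adjusted p = 0.0186), 0.69 for Cry2 (adjusted p = 0.00437) and -1.23 for Cry1 (adjusted p = 3.37e-04). The 2 comparisons share the Con libraries. Bhlhe41, without the filter, rose by 0.94 in A10-FMT (adjusted p = 0.00789) and by 0.92 in Con-FMT (adjusted p = 0.00397). Per2 in Con-FMT was lost without Con replicate 1 (adjusted p = 0.0951), without Con-FMT replicate 3 (adjusted p = 0.0503) and with the third libraries of Con and A10 left out (adjusted p = 0.0554), while in A10-FMT, at 0.87 (adjusted p = 0.13), it was called only without Con replicate 2 (1.23, adjusted p = 0.0438). Without Con-FMT replicate 3, the library with acinar markers, the changes against Con were 3.28 for Ciart, 2.72 for Per1, 1.35 for Per3, 0.72 for Cry2 and -1.23 for Cry1. With the third libraries of Con and A10 left out, the changes in A10-FMT were 3.35 for Ciart, 2.35 for Per3, 1.71 for Per1, 0.73 for Cry2 and -1.49 for Cry1, and those in Con-FMT 3.20 for Ciart, 2.65 for Per1, 1.69 for Per3, 0.71 for Cry2 and -1.25 for Cry1, all of them called.

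In A10-FMT compared with Con-FMT, the question was whether the source of the microbiota mattered. By limma, 0 of 9 genes were called and 2 had an unadjusted p under 0.05, where 18.8% of all genes were called. Per1 was lower in all 3 A10-FMT libraries than in all 3 Con-FMT libraries, by -0.94 (95% interval -1.69 to -0.18, adjusted p = 0.0774), and by -1.04 (adjusted p = 0.0960) without Con-FMT replicate 3. Per3 differed by 0.66 (95% interval 0.05 to 1.26, adjusted p = 0.119) and was called without Con-FMT replicate 3 (0.96, adjusted p = 0.0283), in a range of 0.0283 to 0.355 over the alternatives. For Ciart the 95% interval of the difference was -0.65 to 0.94.

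Against HS, the comparisons from which the genes were chosen, values are given as a description without a test. In A10-FMT, 6 of the 10 genes (Per2, Per3, Cry2, Ciart, Bhlhe40 and Bhlhe41) were higher in all 3 libraries than in all 3 HS libraries and 2 (Cry1 and Csnk1d) were lower, where 4.59% of all tested genes were higher and 32.8% lower in this way. In Con-FMT, 7 genes were higher (the same 6 and Per1) and 2 (Csnk1d and Csnk1e) were lower, where 7.11% of all genes were higher and 27.9% lower. Over all tested genes the median difference from HS was -0.16 for A10-FMT and -0.12 for Con-FMT. The difference from HS, in A10-FMT and then in Con-FMT, was 3.35 and 3.21 for Ciart, 2.25 and 1.59 for Per3, 1.02 and 1.96 for Per1, and 1.04 and 1.45 for Per2. It was 0.61 and 0.59 for Cry2, 1.35 and 1.43 for Bhlhe40, -0.70 and -0.46 for Cry1, and -0.33 and -0.27 for Csnk1d. Without Con-FMT replicate 3, the difference of Con-FMT was 3.31 for Ciart, 1.29 for Per3, 2.06 for Per1, 1.12 for Bhlhe40 and -0.27 for Csnk1d. Under median scaling Csnk1d differed by -0.15 and -0.16. With a pseudocount of 0.1 the differences were 4.84 and 4.68 for Ciart and 3.34 and 2.55 for Per3. The 2 comparisons share the HS libraries.

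Csnk1d and Csnk1e changed little in the 7 comparisons between single groups that were tested. Csnk1d ranged from -0.08 to 0.25 on the log2 scale, with 95% intervals within -0.25 to 0.41, and Csnk1e from -0.20 to 0.20, with 95% intervals within -0.45 to 0.45.

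Among the 7 clock activators and receptors, Arntl and Npas2 of the activating arm were low where Ciart and Per3 were high. Arntl was at 10.11, 12.90 and 12.15 RPKM in Con, at 11.16, 12.72 and 11.81 RPKM in A10 and at 8.84, 8.86 and 13.37 RPKM in HS. It was at 0.70, 2.97 and 2.65 RPKM in HS+A10, at 1.22, 3.11 and 0.91 RPKM in A10-FMT and at 4.92, 1.26 and 1.59 RPKM in Con-FMT, with no overlap between these and the first 3 groups. In HS+A10 compared with A10, Arntl (-2.15, adjusted p = 0.00101, limma) and Npas2 (-1.69, adjusted p = 2.66e-05) fell, and Nr1d1 (1.55, adjusted p = 0.00671) and Nr1d2 (1.28, adjusted p = 2.00e-04), which encode the REV-ERB receptors that repress Arntl, rose. The 7 genes had a median change of -0.31 there, beside 0.04 for all genes. Of them 2 were called higher and 2 lower, where 13.6% of all genes were higher and 7.28% lower. Nr1d1, which overlaps Thra on the opposite strand, and Nr1d2 were also called higher in A10 than in Con (2.45, adjusted p = 0.0160, and 1.39, adjusted p = 0.00760) and in HS than in Con (2.71, adjusted p = 3.73e-04, and 1.44, adjusted p = 1.77e-04). Of all genes, 0.049% were called higher in A10 than in Con and 15.9% in HS than in Con. Against Con, the calls in A10 were lost with the third libraries of Con and A10 left out (2.54 and 1.39, adjusted p = 0.272 for both), and with only the A10 and Con libraries in the fit Nr1d1 was not called (adjusted p = 0.0755), while those in HS were kept without the third libraries (2.77, adjusted p = 0.00425, and 1.44, adjusted p = 0.00364) and without HS replicate 2 (2.74, adjusted p = 0.00186, and 1.44, adjusted p = 0.00114). Nr1d1 was at 1.22, 3.68 and 2.72 RPKM in Con, at 30.70, 10.03 and 16.86 RPKM in A10 and at 17.17, 20.12 and 26.96 RPKM in HS. In the comparisons with Con, 5 of 7 of these genes were called in A10-FMT and 6 of 7 in Con-FMT, in each case with Nr1d1 and Nr1d2 higher and the others lower. Of all genes, 14.3% were called in A10-FMT and 25.8% in Con-FMT.

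Of the 4 PAR bZIP outputs, Dbp and Tef showed the split of Ciart and Per3, with no overlap between Con, A10 and HS and the other 3 groups. Dbp, a transcription factor whose level sets daily rhythms of liver enzymes, was between 0.36 and 3.41 RPKM in the libraries of Con, A10 and HS and between 47.26 and 98.80 RPKM in those of HS+A10, A10-FMT and Con-FMT. Against A10, HS+A10 livers had more Dbp (4.63, adjusted p = 3.34e-06, limma), Tef (1.78, adjusted p = 5.04e-04) and Hlf (0.76, adjusted p = 0.00209) and less Nfil3 (-1.60, adjusted p = 0.00130), the repressor that binds the same D-box, with a median of 1.27 over the 4 genes. All 4 were called in the same directions against HS, where 2.95% of all genes were higher and 4.37% lower. Against A10, 13.6% of all genes were higher and 7.28% lower. With only the HS and HS+A10 libraries in the fit, Hlf (adjusted p = 0.05335) and Nfil3 (adjusted p = 0.0712) were no longer called, while Dbp and Tef were. In A10-FMT compared with Con-FMT, Hlf was higher (0.81, adjusted p = 0.00151) and Nfil3 lower (-1.47, adjusted p = 0.00252) in A10-FMT, where 6.72% of all genes were higher and 12% lower.

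**Figure D4:**
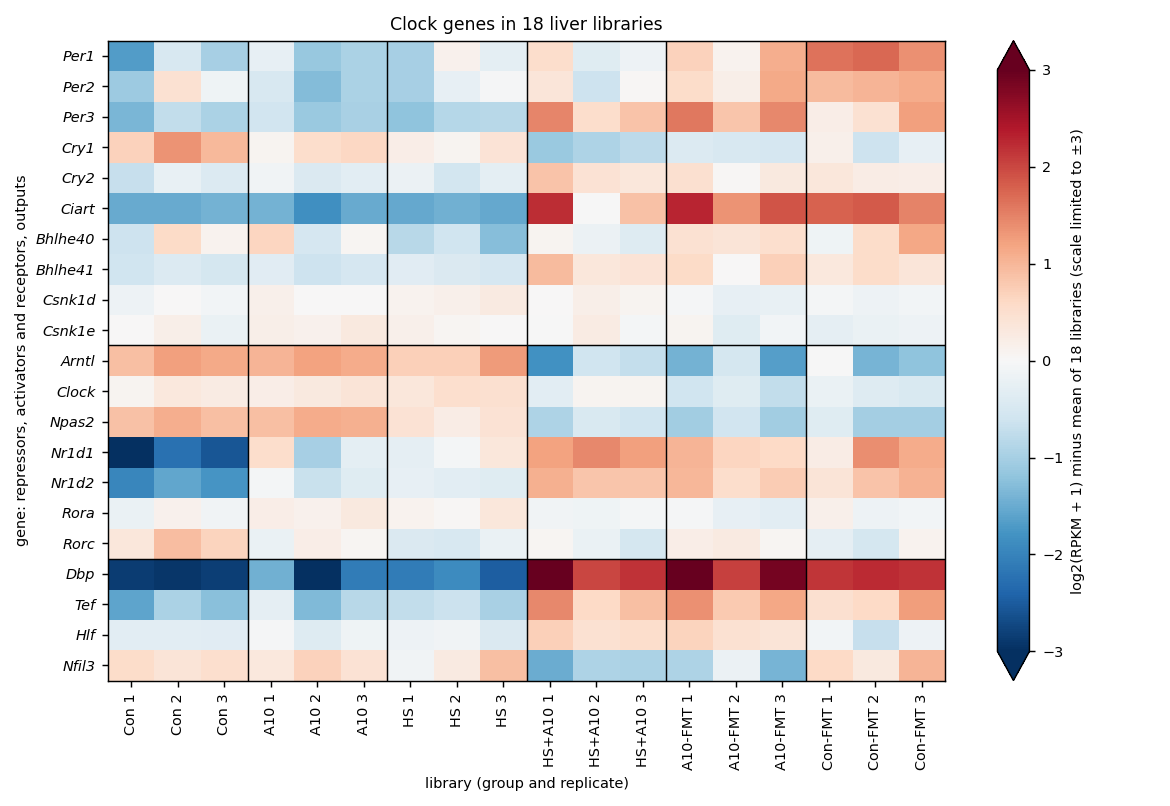
Heat map of log2(RPKM + 1) minus the mean of the 18 libraries for the 10 repressors, 7 activators and receptors, and 4 PAR bZIP genes (rows), in each library (columns), with the colour scale limited to 3 in either direction. Ciart, Per3, Dbp and Tef were high and Arntl, Npas2 and Cry1 low in HS+A10, A10-FMT and Con-FMT, and Nr1d1 was lowest in Con.

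Of 18 genes for kinases, ubiquitin ligases and deubiquitinases that act on PER or CRY, 6 were higher and 0 lower in HS+A10 than in A10, where 13.6% of all genes were higher. With the third libraries of Con and A10 left out 3 (Usp2, Skp1a and Cul4a) of the 6 were called. Usp2, a deubiquitinase of clock proteins, had the widest change (2.23, adjusted p = 3.91e-04, limma), and the other 5 (Csnk2a1, Fbxw11, Skp1a, Ddb1 and Cul4a) changed by 0.19 to 0.40. The median over the 18 was 0.09, beside 0.04 for all genes. In HS compared with Con 6 of 18 were higher, by 0.28 to 0.45, where 15.9% of all genes were higher and their median change was 0.14. Under median scaling 2 of the 6 (Fbxw11 and Cul4a) were called. In HS+A10 compared with HS 1 was higher, Usp2, where 2.95% of all genes were. With only the HS and HS+A10 libraries in the fit Usp2 was no longer called (adjusted p = 0.0796). In Con-FMT compared with Con 5 of 18 were higher and 2 lower, where 14.4% of all genes were higher and 11.5% lower. Of these 7, 3 were called with the third libraries of Con and A10 left out. In A10-FMT compared with Con 2 (Cul4a and Usp2) were higher, where 6.72% of all genes were. In A10-FMT compared with Con-FMT 1 was higher, Fbxl21 (0.63), where 6.72% of all genes were. Of the 12 partners of PER and CRY complexes, 11 were tested. Between HS+A10 and A10 limma called 0 of them, 0 had an unadjusted p under 0.05 and their median change was 0.03. It called 1, Chd4 (-0.34), in A10-FMT compared with Con, where 7.62% of all genes were lower. In Con-FMT compared with Con it called Sfpq higher (0.52) and Tipin, Chd4 and Hdac1 lower, where 14.4% of all genes were higher and 11.5% lower. Of these, Hdac1 was lost without Con-FMT replicate 3 (adjusted p = 0.0912). With the third libraries of Con and A10 left out, Tipin (adjusted p = 0.111) and Hdac1 (adjusted p = 0.0995) were lost. In A10-FMT compared with Con-FMT, Sfpq was called lower (-0.62) and Chd4 higher (0.35), where 12% of all genes were lower and 6.72% higher. In HS+A10 compared with HS, Sfpq was called lower (-0.35), where 4.37% of all genes were. With only the compared groups in the fit, this Sfpq call was lost, as were those of Chd4 in A10-FMT against Con-FMT and against Con.

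Per1 and Per2 are also induced outside the loop by glucocorticoid, cAMP and heat, and genes known to respond to these signals were read beside them. Fkbp5, a glucocorticoid target, was at 23.97, 14.72 and 22.41 RPKM in Con-FMT and between 3.85 and 7.80 RPKM in the other 15 libraries, and Zbtb16, another, was at 9.24, 6.75 and 9.41 RPKM in Con-FMT and between 0.64 and 3.64 RPKM elsewhere. Both were separate from all other groups in Con-FMT, as Per1 was. Of the 5 glucocorticoid-induced genes, 3 (Fkbp5, Zbtb16 and Tat) were called higher in Con-FMT than in Con, with changes of 1.96, 2.06 and 1.28, where 14.4% of all genes were higher. The same 3 were called lower in A10-FMT than in Con-FMT, with changes of -1.71, -2.28 and -1.03, where 12% of all genes were lower. Tsc22d3 and Sgk1 were not called in either comparison. Tsc22d3 averaged 53.6 RPKM in Con, 56.5 RPKM in Con-FMT and 64.8 RPKM in A10-FMT, and Sgk1 averaged 5.76, 8.20 and 8.93 RPKM. Of the 6 cAMP and immediate-early genes, Junb (2.80) and Crem (0.79) were called higher in Con-FMT than in Con. Both were called lower in A10-FMT than in Con-FMT (-2.17 and -1.16). Fos, Egr1, Nr4a1 and Sik1 were not called in either comparison, and each had a higher mean in A10-FMT than in Con-FMT. The means in Con-FMT and then A10-FMT were 4.47 and 4.94 RPKM for Fos and 15.8 and 28.4 RPKM for Egr1. They were 1.36 and 1.67 RPKM for Nr4a1 and 6.21 and 6.54 RPKM for Sik1. Of the 6 temperature-dependent genes, the heat shock genes Hspa8 (1.67) and Hsph1 (2.24) were called higher and the cold-induced Cirbp (-0.92) lower in Con-FMT than in Con, and the reverse held in A10-FMT compared with Con-FMT (-1.37, -1.99 and 0.81). In Con-FMT compared with Con, 14.4% of all genes were higher and 11.5% lower. In A10-FMT compared with Con-FMT, 6.72% were higher and 12% lower. Hspa1a and Hspa1b, also heat shock genes, were not called in either comparison. Hspa1a averaged 9.80 RPKM in Con, 27.6 RPKM in Con-FMT and 26.6 RPKM in A10-FMT, and Hspa1b averaged 29.3, 79.9 and 71.3 RPKM. Rbm3, the other cold-induced gene of the list, was not called in either comparison. Unlike Cirbp it had a higher mean in Con-FMT (17.46 RPKM) than in Con (13.25 RPKM), and its mean was 19.5 RPKM in A10-FMT. Without Con-FMT replicate 3 all 8 called genes of these lists were still called in both comparisons. Against Con their changes were 1.88 for Fkbp5, 1.99 for Zbtb16, 1.30 for Tat, 2.38 for Junb, 0.95 for Crem, 1.71 for Hspa8, 2.33 for Hsph1 and -0.94 for Cirbp. The median change from Con to Con-FMT was 1.28 for the glucocorticoid list, 0.89 for the cAMP list and 1.57 for the temperature list, beside 0.03 for all genes. The temperature list mixes heat shock genes with cold-induced genes, so its median does not describe a response to temperature in 1 direction. From Con to A10-FMT, in which Per1 was called, limma called 0 genes of these 3 lists, with unadjusted p under 0.05 for 1, 0 and 1 genes. The medians were 0.26, 0.41 and 0.41, beside -0.02 for all genes. With only the A10-FMT and Con libraries in the fit, Sgk1 (0.55, adjusted p = 0.0207) and Rbm3 (0.52, adjusted p = 0.0394) were called higher. The A10-FMT libraries spread widely for Egr1, from 2.75 to 79.41 RPKM, and for Fos, from 0.91 to 11.08 RPKM. The part of these signals in the Per1 and Per2 levels was not tested.

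**Figure D5:**
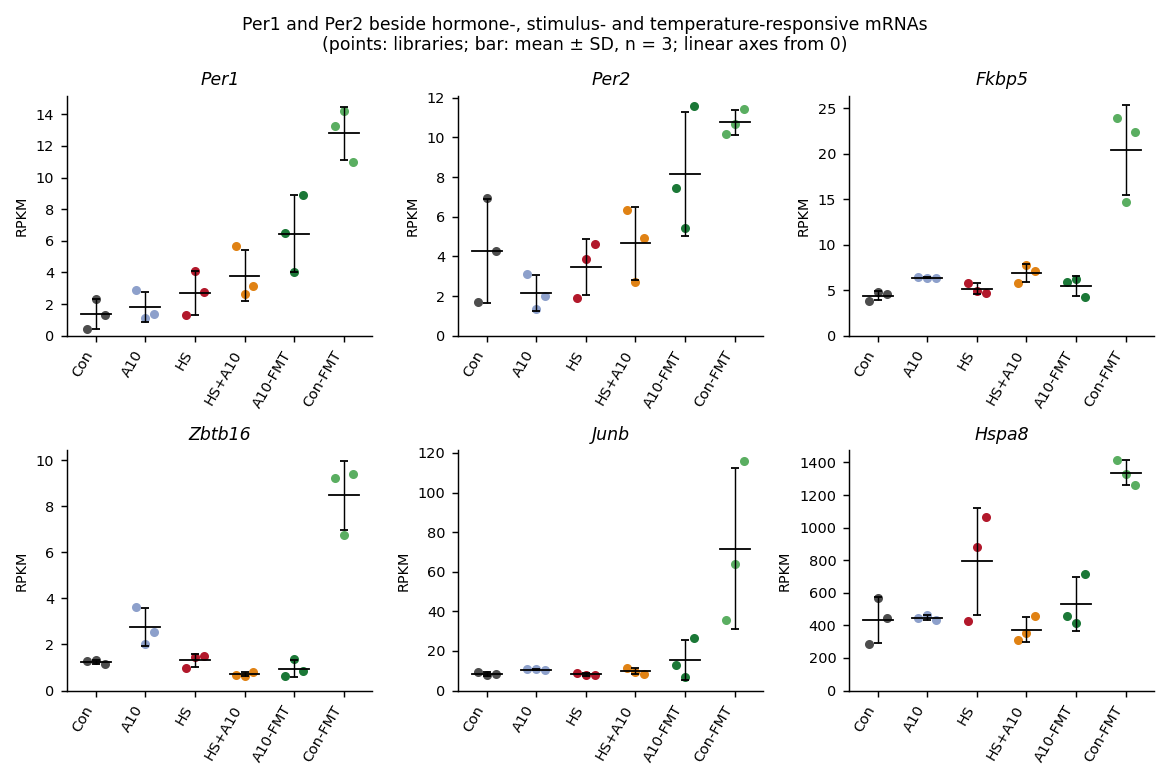
RPKM of Per1, Per2, the glucocorticoid targets Fkbp5 and Zbtb16, the immediate-early gene Junb and the heat shock gene Hspa8 by group, with a point for each library and a bar for the mean ± SD (n = 3), on linear axes that start at 0. All 6 have their highest group mean in Con-FMT, with Fkbp5 at 14.72 to 23.97 RPKM there and 3.85 to 7.80 RPKM in the other groups. The genes shown beside Per1 and Per2 are a selection from the 3 lists. Of those not shown, Tat, Crem, Hspa1a, Hspa1b and Hsph1 were also highest in Con-FMT. Tsc22d3, Fos, Egr1, Nr4a1 and Rbm3 were highest in A10-FMT, Sgk1 and Sik1 in HS and Cirbp in A10.

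For the 3 repressors with the widest range of group means on the log2 scale, Ciart, Per1 and Per3, the other genes with the most similar pattern over the 18 libraries were listed by Pearson's r, which mostly reflects differences between the 6 groups and is given without a test. For Ciart they were Usp2 (r = 0.968), Dbp (r = 0.965) and Tef (r = 0.935). For Per3 they were Tef (r = 0.978), Dbp (r = 0.958) and Sord (r = 0.947), the gene of sorbitol dehydrogenase. For Per1 they were Chd7 (r = 0.944), a chromatin remodeller, Mknk2 (r = 0.937), a kinase of the translation factor eIF4E, and Mtss1 (r = 0.929), so that none of the genes listed for Per1 was among those of Ciart or Per3. By Spearman's rho the lists were Usp2, Dbp and Pfdn2 for Ciart, Tef, Stk35 and Wee1 for Per3, and Mtss1, Ptp4a1 and Chd7 for Per1.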

How the data were processed

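Liver mRNA was sequenced in 18 libraries, 3 in each of 6 groups taken from the sample labels. The authors counted the reads of each gene, turned them into RPKM and deposited these RPKM values with 2 decimals. The methods of the study name SOAPaligner 2.20, while the submitters' processing notes name Bowtie 0.12.2 and mm10. Which of them made this table is not stated. The number of reads is unknown. The steps between the lowest values of 76 short genes put the depth of the libraries at 0.962 to 1.02 of their mean, with HS lowest, so no counting error could be given for single values. Date-like symbols (26 rows) and 3 repeated symbols do not include the genes reported.

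RPKM values were used as deposited and put on the log2(RPKM + 1) scale. Those genes that averaged 1 RPKM or more were fitted with limma 3.58.1 in R 4.3.3, with a mean for each group and the variance moderated along a trend with expression. Of 10 comparisons, 8 were tested, with Benjamini-Hochberg adjustment over all 10204 genes, and 2 were described. DEGseq, the test of the study, ignores the spread between replicates and was not used. The method was tested on simulated data. Annotation and figures were made with Python 3.11.15 and matplotlib 3.10.9. Gene positions come from GENCODE M21 (GRCm38), and promoter sequences from RefSeq.

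The members, the 7 lists of other genes and the tests were chosen with earlier results of these data known. All members are named. In each list at most the 4 genes with the smallest adjusted p in a comparison are named, and any that a sentence on the members needs. Beyond this, all genes of the glucocorticoid, cAMP and temperature lists are named, and more than 4 of the kinases, ligases and deubiquitinases in HS+A10 compared with A10. The 3 most similar genes are named for the 3 members with the widest range of group means. Alternatives tried were leaving out each library of the compared groups in turn, the low-value filter removed or raised to 5 RPKM, median scaling or quantile normalization of the libraries, a pseudocount of 0.1, the replicate number as a block, only the compared groups or only the 12 libraries of the recipient experiment in the fit, no variance trend and Spearman's rho for similarity. Libraries of groups outside a comparison were not left out singly. Leaving out the third libraries of Con and A10 together was chosen after seeing the data.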

Additional observations from a re-analysis of the deposited data

Results flagged for a closer look

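For Dbp, the change from HS to HS+A10 exceeded that from Con to A10 by 3.92 on the log2 scale (SE 0.50, adjusted p = 0.00978, limma interaction term). Dbp was at 0.66, 0.58 and 0.68 RPKM in Con, 3.41, 0.36 and 1.78 RPKM in A10, 1.79, 2.22 and 1.17 RPKM in HS and 97.45, 47.26 and 52.80 RPKM in HS+A10. It was 1 gene of 10204 tested, 0 genes were called without HS replicate 3 or with the third libraries of Con and A10 left out, and Dbp had been among the genes that led to the choice of the clock genes.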

How the results depend on the processing

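Leaving out single libraries gave 0 to 2 genes called in HS compared with Con (2 of 9 as reported), 0 to 1 in HS+A10 minus HS against A10 minus Con, the difference of differences (0), 0 to 1 in A10-FMT compared with Con-FMT (0), 5 to 6 in A10-FMT compared with Con (5) and 5 to 6 in Con-FMT compared with Con (6), and 4 in HS+A10 compared with A10 and with HS. In HS compared with Con, 1 gene was called under quantile normalization, with the 12 libraries of the recipient experiment and without the third libraries of Con and A10, and 0 with only the compared groups in the fit. With only the compared groups, HS+A10 compared with HS called 2 of the 4. A pseudocount of 0.1 called 1 gene, Ciart, in the difference of differences. A mean of at least 5 RPKM called 3 in A10-FMT compared with Con, since Per1 and Per3 were not tested. Of 45 same-numbered pairs of libraries, 12 had a correlation over 0.1 (range -0.126 to 0.262). Pairs with different numbers were not computed, so these values cannot decide whether replicate numbers pair the libraries. With the replicate block 1 gene was called in HS compared with Con, the counts of the other tested comparisons being the same. Of 929 member changes recomputed under alternatives, 895 stayed the same, 18 lost the call and 7 gained it. Another 9, described differences from HS of Ciart, Per3, Csnk1d and Csnk1e, moved. In the tested comparisons, staying the same meant the same direction and side of the threshold. In the described ones it meant a shift smaller than the SD of the gene between libraries. In the tested comparisons 0 reversed, but small changes that were not called were left out, so this does not cover them.

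Counts over all genes depended on scaling. In HS compared with Con, 1618 higher and 191 lower became 398 and 486 under median scaling and 486 and 390 under quantile normalization. In HS+A10 compared with HS, 301 and 446 became 579 and 356, and 601 and 452. In HS+A10 compared with A10, 1388 and 743 became 1243 and 1151, and 1294 and 1100. In A10-FMT compared with Con-FMT, 686 and 1228 became 1302 and 958, and 1147 and 971. In Con-FMT compared with Con, 1465 and 1172 became 1258 and 1725 under median scaling. With only the compared groups the calls went from 1809 to 566 (HS with Con), from 747 to 57 (HS+A10 with HS), from 7 to 38 (A10 with Con), from 1 to 4 (difference of differences) and from 1914 to 685 (A10-FMT with Con-FMT). Without the third libraries of Con and A10 they went to 697 (HS with Con), 0 (A10 with Con), 1159 of 2131 (HS+A10 with A10), 0 (difference of differences), 599 of 1464 (A10-FMT with Con) and 1626 of 2637 (Con-FMT with Con). A mean of at least 5 RPKM gave 1229 (A10-FMT with Con-FMT), 1734 (Con-FMT with Con) and 2 (difference of differences), no filter gave 14 (A10 with Con) and 11 (difference of differences), a pseudocount of 0.1 gave 4 (difference of differences) and the 12 libraries gave 1001 (HS with Con). Single libraries left out gave 845 to 1597 (HS with Con), 159 to 1239 (HS+A10 with HS), 0 to 73 (A10 with Con), 1324 to 1679 (HS+A10 with A10), 0 to 118 (difference of differences), 1176 to 1638 (A10-FMT with Con-FMT), 816 to 1260 (A10-FMT with Con) and 1879 to 2499 (Con-FMT with Con). The cause was not tested.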
